A study of Mus with 9 samples.

Results

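The genes described here are 9 podocyte genes, Nphs1, Podxl, Synpo, Wt1, Magi2, Ptpro, Plce1, Cd2ap and Actn4, chosen by symbol from a table of 54532 mouse genes. Each symbol was found once, and all 9 genes passed the filter on low counts that left 15902 genes for testing. Their transcripts were measured by RNA sequencing of kidney tissue from 9 male C57BL/6 mice, 1 library per mouse, in 3 groups of 3 named 18 mo, 21 mo and 21 mo/O304. All the mice had 1 kidney removed (unilateral nephrectomy) at 18 months of age, so no group had both kidneys. The 18 mo group was killed 1 week after the operation. The 21 mo group received daily intraperitoneal saline and the 21 mo/O304 group daily intraperitoneal O304 at 10 mg/kg, both for 12 weeks. O304 is a small molecule that activates AMPK, a kinase that senses low cellular energy. The 18 mo mice thus differ from the others in age, in time after the operation and in the injections, which cannot be told apart. Which region of the kidney went into each RNA sample is not given in the sources used here.

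Podocytes are the epithelial cells that wrap the capillaries of the glomerulus, the filter at the head of each nephron. Their foot processes interlock, and the gap between neighbouring processes is bridged by the slit diaphragm, a protein sheet built around nephrin that holds back plasma protein. The processes are kept open by a negatively charged surface coat and by an actin skeleton anchored to the glomerular basement membrane. Mature podocytes divide little, and their loss is a known feature of the ageing kidney. Podocytes are a small share of kidney cells, and in RNA of whole tissue fewer podocytes and less RNA per podocyte cannot be told apart.

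Of the 9 genes, nephrin (Nphs1), Magi2 and Cd2ap encode proteins of the slit diaphragm or of the complex attached to it. Podxl encodes podocalyxin, the main sialic acid-rich protein of the surface coat, and Ptpro encodes a receptor tyrosine phosphatase of the podocyte surface. Synpo (synaptopodin) and Actn4 (alpha-actinin-4) encode actin-binding proteins of the foot process, Plce1 encodes phospholipase C epsilon, a signalling enzyme, and Wt1 encodes a zinc finger transcription factor needed to build and keep podocytes. Not all are made by podocytes alone: Actn4 and Cd2ap are expressed in many cell types.

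The libraries held 15636378 to 18396725 counts on genes, so that 1 count was worth 0.0458 to 0.0669 CPM (counts scaled by TMM-normalized library size, the unit used here within a gene). Across libraries the 9 genes had from 56 counts, for Plce1, to 9128, for Actn4. The spread between mice was unequal, with a biological coefficient of variation of 18.1% among 18 mo mice, 44.2% among 21 mo mice and 20.6% among O304-treated mice. Replicate 3 of the 21 mo group stood apart from the other 8 libraries, and the edgeR fold changes and medians of the 9 genes, their ratios to nephrin and their likeness to it are therefore also given without it. Markers of the proximal tubule, the most abundant segment of the kidney, summed to 1904 CPM there, against 7370 CPM in replicate 2 of the same group and 14305 to 18576 CPM in the other 7 libraries.

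In that library 8 of the 9 podocyte genes had their highest level, all but Magi2, while 28.9% of all tested genes had their highest level there. Its level over the mean of the other 8 libraries was 4.396-fold for Plce1, 3.56-fold for Wt1, 2.84-fold for Ptpro, 2.83-fold for Nphs1 and 2.56-fold for Synpo. It was 1.86-fold for Podxl, 1.65-fold for Cd2ap, 1.27-fold for Actn4 and 0.926-fold for Magi2. The median of the 9 genes was 2.56-fold, beside 0.992-fold over all tested genes. The summed markers of leukocytes, fibroblasts and parietal epithelial cells, which line the capsule around the glomerulus, were also highest in this library, at 2478, 1318 and 407 CPM. The part of these markers in the podocyte gene levels was not tested.

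**Figure D1:**
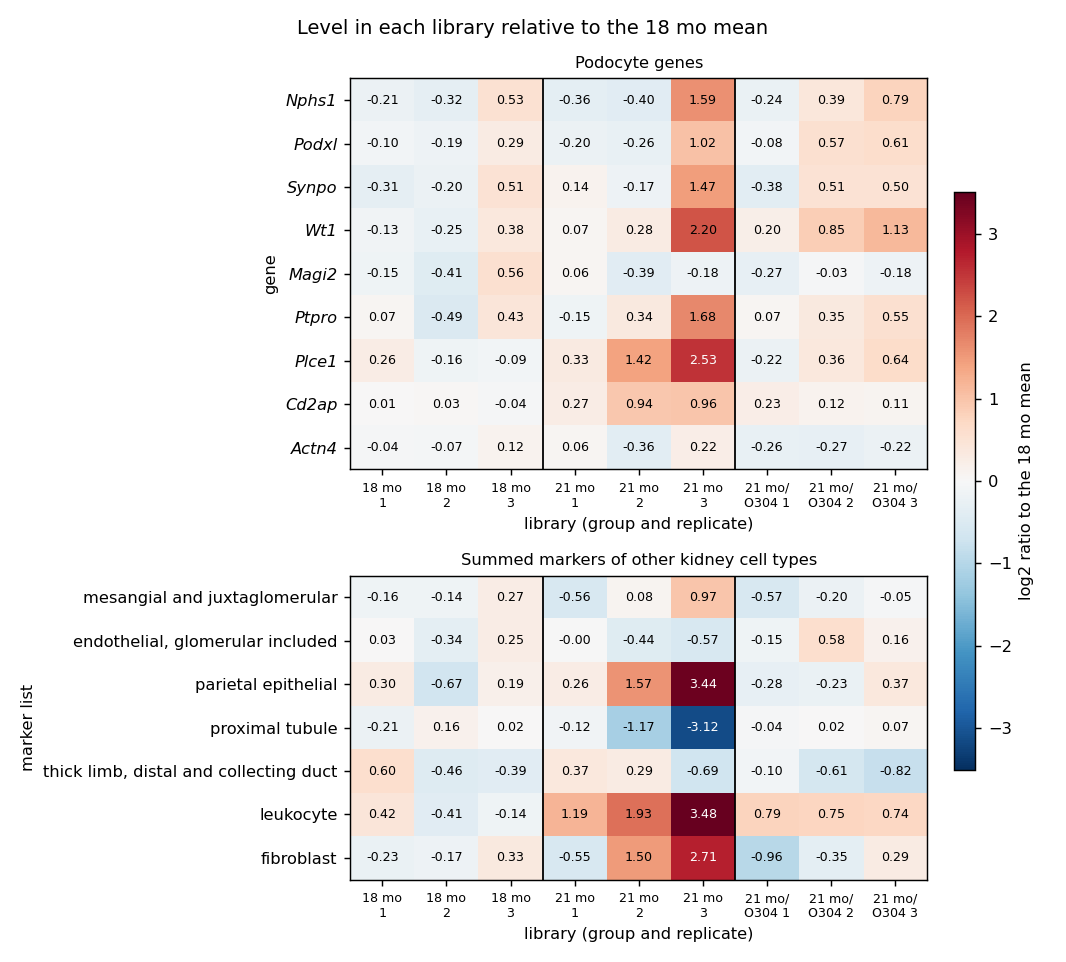
Log2 ratio of each library to the mean of the 18 mo group, for the 9 podocyte genes in CPM (top) and for the summed CPM of 7 marker lists of other kidney cell types (bottom); columns are the 9 libraries and the colour and the number in each cell give the ratio. Replicate 3 of the 21 mo group is high for every podocyte gene but Magi2, at 2.53 for Plce1 and 2.20 for Wt1, and reaches −3.12 for the proximal tubule list and 3.48 for the leukocyte list.

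Between genes, levels were compared per length, in FPKM as deposited. Actn4 had the highest level, with a mean over the 9 libraries of 53.6 FPKM, followed by Podxl at 29.0, Cd2ap at 7.22 and Synpo at 5.27 FPKM. Ptpro at 2.21, Nphs1 at 2.16, Wt1 at 1.13, Magi2 at 0.796 and Plce1 at 0.433 FPKM came after them. Podxl and Cd2ap were the only neighbours in this order whose ranges over the 9 libraries did not overlap. Ptpro was above Nphs1 in 5 of 9 libraries and Wt1 above Magi2 in 5 of 9, so those neighbours were not ordered beyond their spread. Leaving out the 21 mo library that stood apart, the order of the means was the same, with Ptpro at 1.84 and Nphs1 at 1.80 FPKM. Nephrin itself was therefore among the less abundant of the 9 transcripts, while podocalyxin stood far above it in every library.

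Nphs1 lies on the plus strand of chromosome 7, at 30458315 to 30487223 (GRCm38, positions as deposited), and overlaps the pseudogene Rps12-ps4 and the antisense gene Nphs1os. Whether the counting used strand is not given in the sources used here, so reads of Nphs1 and of either gene cannot be told apart. Rps12-ps4 had a mean of 32.7 counts over the libraries, beside 265 for Nphs1. Nphs1 stood at 9.91, 9.18 and 16.7 CPM in replicates 1 to 3 of the 18 mo group, at 8.96, 8.70 and 34.8 CPM in 21 mo mice and at 9.71, 15.1 and 20.0 CPM in O304-treated mice. The 21 mo group thus held both the lowest and the highest nephrin levels of the series, and all 3 groups overlapped. The means were 11.9 ± 4.14, 17.5 ± 14.98 and 14.9 ± 5.14 CPM (SD, n = 3 each).

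Podxl, on the minus strand of chromosome 6 from 31519488 to 31563981, followed nephrin closely. Its levels were 128, 121 and 169 CPM in 18 mo mice, 120, 115 and 280 CPM in 21 mo mice and 130, 205 and 211 CPM in O304-treated mice. Each group had 1 or more mice near 120 to 130 CPM, and replicate 3 was the highest in all of them. Synpo, on the minus strand of chromosome 18 from 60593973 to 60660142, stood at 32.8, 35.3 and 58.0 CPM, at 44.7, 36.1 and 113 CPM and at 31.3, 57.8 and 57.7 CPM in the same order of groups. Ptpro, on the plus strand of chromosome 6 from 137252319 to 137463233, stood at 11.8, 7.95 and 15.2 CPM, at 10.1, 14.3 and 36.2 CPM and at 11.8, 14.4 and 16.5 CPM. For both, the high 21 mo mouse was the same as for nephrin, and the remaining mice of the 3 groups overlapped.

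Wt1 lies on the plus strand of chromosome 2 from 105126529 to 105173616. It stood at 3.90, 3.57 and 5.60 CPM in 18 mo mice, at 4.48, 5.23 and 20.0 CPM in 21 mo mice and at 4.94, 7.81 and 9.49 CPM in O304-treated mice. The 2 highest of the 9 mice after replicate 3 of the 21 mo group were O304-treated, and the 18 mo group held the 2 lowest. Magi2, which spans chromosome 5 from 19227036 to 20704792 on the plus strand and overlaps 8 other annotated genes, was the flattest of the slit diaphragm genes, with an SD of log2 CPM over the 9 libraries of 0.30. Its 8 overlapping genes had mean counts of at most 0.556. It stood at 8.86, 7.39 and 14.7 CPM, at 10.3, 7.50 and 8.70 CPM and at 8.14, 9.65 and 8.72 CPM, with its highest value in an 18 mo mouse.

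Plce1, on the plus strand of chromosome 19 from 38481109 to 38785030, was the gene with the widest range. It stood at 4.65, 3.45 and 3.62 CPM in 18 mo mice, at 4.88, 10.6 and 22.9 CPM in 21 mo mice and at 3.31, 5.01 and 6.11 CPM in O304-treated mice. Every mouse of the 21 mo group was above every mouse of the 18 mo group, though the lowest of them only narrowly, and 2 of the 3 treated mice were below replicate 2 of the 21 mo group and above replicate 1. Cd2ap, an adaptor that joins the slit diaphragm to actin and lies on the minus strand of chromosome 17 from 42792951 to 42876665, stood at 93.8, 95.0 and 90.8 CPM in 18 mo mice. It stood at 112, 179 and 182 CPM in 21 mo mice and at 109, 101 and 100 CPM in O304-treated mice. No group overlapped another for Cd2ap, with the 18 mo mice lowest, the treated mice between and the 21 mo mice highest. The means of Cd2ap were 93.2 ± 2.14, 158 ± 39.3 and 104 ± 4.97 CPM (SD, n = 3 each).

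Actn4, on the minus strand of chromosome 7 from 28893248 to 28962340, was the most abundant and the least variable. It stood at 347, 340 and 389 CPM in 18 mo mice, at 372, 279 and 418 CPM in 21 mo mice and at 299, 296 and 308 CPM in O304-treated mice. All 3 treated mice were below all 3 mice of the 18 mo group, and the 21 mo mice spanned both.

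**Figure D2:**
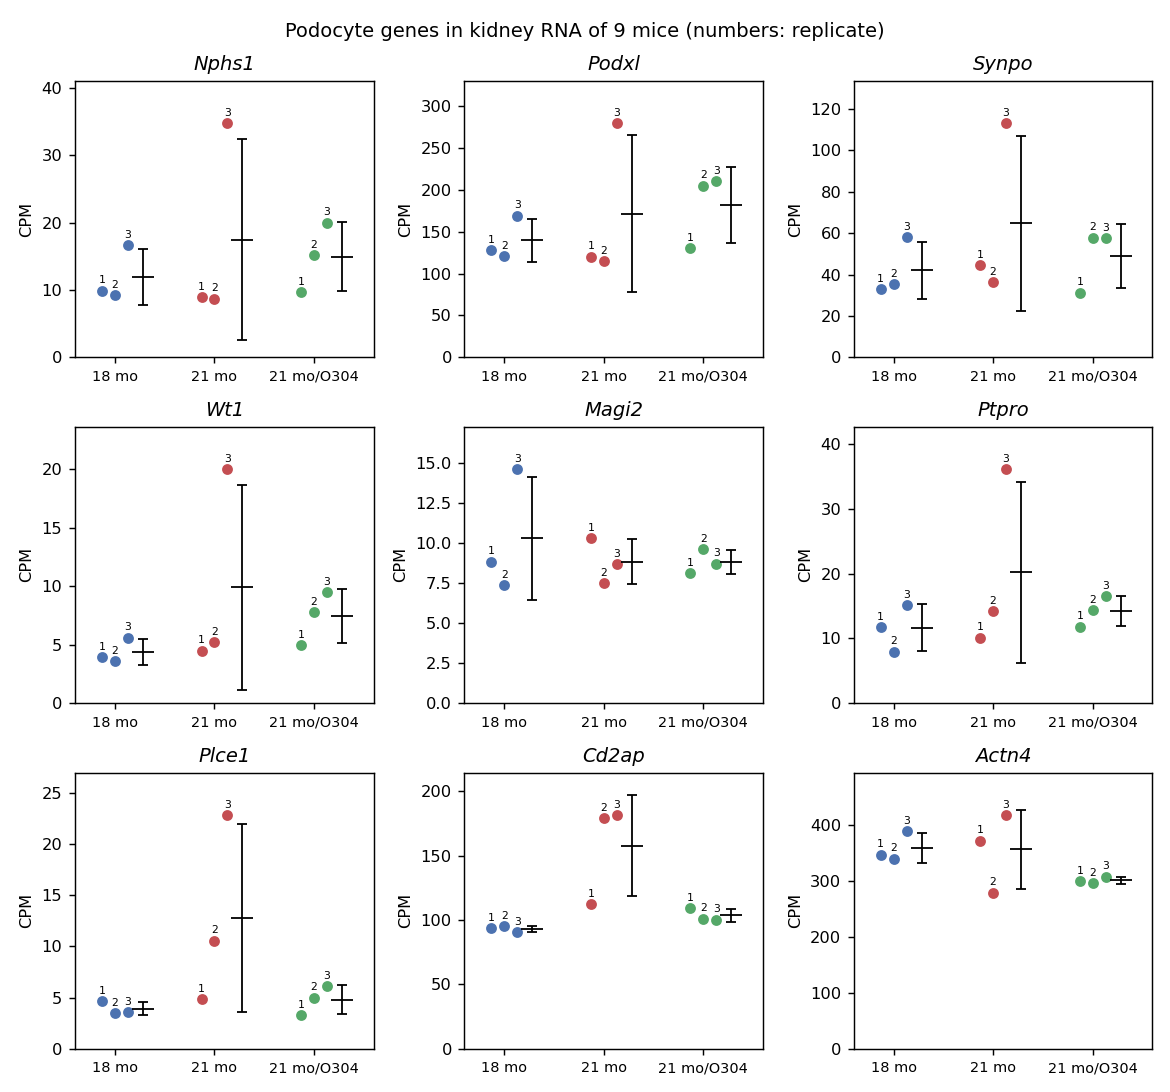
Level of each of the 9 podocyte genes in every library, in CPM on a linear axis from 0; points are libraries numbered by replicate, and the bar beside each group is its mean ± SD (n = 3). Replicate 3 of the 21 mo group is far above the other libraries for Nphs1, Podxl, Synpo, Wt1, Ptpro and Plce1, for Nphs1 at 34.8 CPM beside at most 20.0, while Cd2ap is high in 2 of the 3 mice of that group.

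The first comparison, 21 mo against 18 mo, asked how the kidneys of the older mice differed from those of the younger. None of the 9 podocyte genes passed an adjusted p of 0.05 in edgeR's quasi-likelihood test, where 0.0189% of all tested genes did. At an unadjusted p of 0.05, 2 of the 9 passed, beside 26.1% of all tested genes. With DESeq2, Plce1 and Cd2ap passed the adjusted threshold, where 7.29% of 28225 genes with counts did (12.3% of the 16681 that DESeq2 gave an adjusted p), and with limma voom and sample quality weights 4 passed, where 52.9% did, Plce1 and Cd2ap as higher and Magi2 and Actn4 as lower. Plce1 and Cd2ap, the signalling enzyme and the adaptor, came nearest to the threshold. The log2 fold change of Plce1 was 1.71 (SE 0.50, adjusted p = 0.0908, edgeR) and that of Cd2ap was 0.76 (SE 0.18, adjusted p = 0.0716, edgeR). These were the 2 genes higher in every 21 mo than in every 18 mo mouse, which held for 13.5% of all tested genes. The exact permutation test gave p = 0.1 for each, the smallest it can give with 3 mice against 3.

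The result for both turned on single mice. Without replicate 1 of the 21 mo group, the log2 fold changes were 2.11 for Plce1 (adjusted p = 0.00769, edgeR) and 0.97 for Cd2ap (adjusted p = 0.00311, edgeR), in a fit where 25.4% of all genes passed. Without replicate 3 they were 0.97 for Plce1 (adjusted p = 0.176, edgeR) and 0.63 for Cd2ap (adjusted p = 0.0931, edgeR), where 0.806% passed. Both stayed on the higher side in every fit that left out 1 library, which ranged from 0.97 to 2.11 for Plce1 and from 0.63 to 0.97 for Cd2ap.

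For nephrin, podocalyxin and synaptopodin, the direction of the fold change rested on 1 library. With all 9 libraries the log2 fold change was 0.56 for Nphs1 (SE 0.55, adjusted p = 0.532), 0.30 for Podxl (SE 0.35, adjusted p = 0.611) and 0.62 for Synpo (SE 0.44, adjusted p = 0.392) in edgeR. Without replicate 3 of the 21 mo group the values were −0.45 for Nphs1, −0.26 for Podxl and −0.08 for Synpo, so that all 3 changed sign. Wt1 went from 1.19 (SE 0.56, adjusted p = 0.214, edgeR) to 0.14 and Ptpro from 0.80 (SE 0.44, adjusted p = 0.279, edgeR) to 0.05. Magi2 at −0.22 (SE 0.26, adjusted p = 0.612, edgeR) and Actn4 at −0.01 (SE 0.18, adjusted p = 0.978, edgeR) were near 0 with that library, and stood at −0.23 and −0.16 without it. Over the 9 genes the median was 0.62, with 7 on the higher side, beside 0.03 over all tested genes, and without that library it was −0.08, with 4 on the higher side.

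The second comparison, 21 mo/O304 against 21 mo, asked how the kidneys of O304-treated mice differed from those of saline-treated mice of the same age. None of the 9 genes passed the adjusted threshold in edgeR, and the share over all tested genes was 0%. At an unadjusted p of 0.05 the same 2 genes, Plce1 and Cd2ap, passed, beside 20.7% of all genes. None passed with DESeq2, where 3.36% of genes with counts did (6.07% of those with an adjusted p), and 3 passed with limma voom and sample quality weights, where 41.1% did, Podxl as higher and Plce1 and Cd2ap as lower. Both comparisons share the 21 mo libraries, so a high 21 mo mouse raises the first fold change and lowers the second. The log2 fold change of Cd2ap was −0.61 (SE 0.18, adjusted p = 0.176, edgeR), and the groups did not overlap, as for 10.5% of all tested genes in the lower direction (exact permutation test p = 0.1). That of Plce1 was −1.41 (SE 0.50, adjusted p = 0.190, edgeR), and the groups overlapped. Without replicate 1 of the 21 mo group, Cd2ap at −0.81 (adjusted p = 0.00532, edgeR) and Plce1 at −1.81 (adjusted p = 0.0143, edgeR) passed, where 23.1% of all genes did. Without replicate 3 they stood at −0.48 and −0.68 and did not, where 0.0062% did.

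Nphs1, Synpo, Wt1 and Ptpro changed side here with replicate 3 of the 21 mo group, and Podxl did not. The log2 fold changes with and without it were −0.23 and 0.77 for Nphs1, −0.40 and 0.29 for Synpo, −0.43 and 0.62 for Wt1 and −0.51 and 0.23 for Ptpro. Podxl was at 0.08 with it and 0.64 without it. None of these 5 genes passed the threshold in edgeR in either fit. Magi2 was at 0.00 (SE 0.26, adjusted p = 0.998, edgeR) and Actn4 at −0.24 (SE 0.18, adjusted p = 0.424, edgeR). The median over the 9 genes was −0.40, with 2 on the higher side, beside −0.02 over all tested genes, and it was 0.23, with 5 on the higher side, without that library.

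The third comparison set the treated mice against the 18 mo group, and replicate 3 of the 21 mo group enters it only through the shared estimate of spread and scaling. None of the 9 genes passed the adjusted threshold in edgeR, beside 0% of all tested genes, and none had an unadjusted p under 0.05, beside 9.66%. None passed with DESeq2, beside 0.446% of genes with counts (0.869% of those with an adjusted p), or with limma voom and sample quality weights, beside 2.61%. Wt1 had the largest log2 fold change, 0.76 (SE 0.56, adjusted p = 0.705, edgeR), and Podxl, Nphs1, Plce1, Ptpro and Synpo lay between 0.22 and 0.38. Cd2ap was higher in every treated mouse, at 0.15 (SE 0.18, adjusted p = 0.833, edgeR), as were 13.2% of all tested genes. Actn4 was lower in every treated mouse, at −0.25 (SE 0.18, adjusted p = 0.690, edgeR), as were 13.3%. The exact permutation test gave p = 0.1 for each. In the fit without replicate 3 of the 21 mo group the log2 fold changes were 0.75 for Wt1, 0.14 for Cd2ap and −0.26 for Actn4. The median over the 9 genes was 0.29, and 0.28 without replicate 3 of the 21 mo group, with 7 on the higher side in both and none called in that fit, where 0.0744% of all genes were, beside 0.00 over all tested genes.

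**Figure D3:**
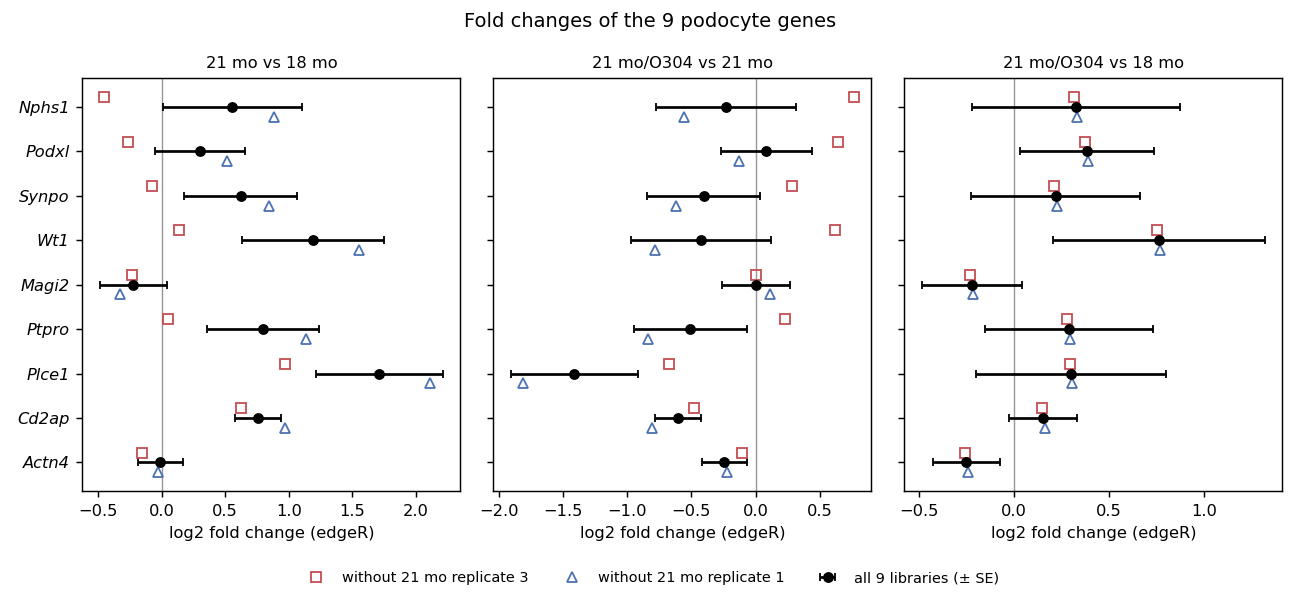
Log2 fold changes of the 9 podocyte genes in the 3 comparisons, from edgeR; filled points with bars are the values ± SE from all 9 libraries, open squares those without replicate 3 of the 21 mo group and open triangles those without replicate 1. Nphs1, Podxl and Synpo lie above 0 in 21 mo against 18 mo with all libraries and below it without replicate 3, at −0.45 for Nphs1, while Plce1 and Cd2ap keep their side.

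The genes of the list were also compared with nephrin within each library. The count of each gene was divided by that of Nphs1 in the same library, which does not depend on the scaling between libraries. This was done for the 8 other genes in all 3 comparisons, after the levels had been seen. For Podxl, Synpo, Ptpro and Wt1, the SD over the 9 libraries on the log2 scale was smaller for the ratio than for the level. It went from 0.46 to 0.26 for Podxl, from 0.59 to 0.24 for Synpo, from 0.61 to 0.31 for Ptpro and from 0.78 to 0.28 for Wt1. For Magi2, Cd2ap and Actn4 it was larger, at 0.67 beside 0.30, 0.69 beside 0.39 and 0.62 beside 0.20, and for Plce1 it was 0.73 beside 0.91. Podxl, Synpo, Ptpro and Wt1 thus varied less between mice once divided by nephrin, and Magi2, Cd2ap and Actn4 varied more. Without replicate 3 of the 21 mo group, a setting added after the data were seen, this held for Podxl (0.36 to 0.17), Synpo (0.39 to 0.24), Wt1 (0.47 to 0.27), Magi2 (0.31 to 0.41), Cd2ap (0.31 to 0.68) and Actn4 (0.17 to 0.50). Ptpro was then at 0.34 and 0.33, and Plce1 varied more as a ratio, at 0.74 beside 0.54.

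Relative to nephrin, Wt1 separated the 18 mo mice from both older groups. The ratio was 0.394, 0.389 and 0.336 in 18 mo mice, 0.5, 0.601 and 0.576 in 21 mo mice and 0.509, 0.516 and 0.475 in O304-treated mice. All 6 mice of the older groups, replicate 3 of the 21 mo group among them, were above all 3 mice of the 18 mo group, as was the ratio to Nphs1 of 0.39% of all other tested genes. The difference in log2 ratio was 0.58 between the 21 mo and 18 mo groups and 0.43 between the treated and 18 mo groups (exact permutation test p = 0.1 for each). The first difference was 0.56 without replicate 3 of the 21 mo group, and the groups still did not overlap. Taken 1 comparison at a time, 3.28% and 1.03% of genes had no overlap in that direction. Rps12-ps4 and Nphs1os overlap Nphs1, and their part in the ratio was not tested.

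Plce1 relative to nephrin was highest in the untreated older mice. The ratio was 0.469, 0.376 and 0.217 in 18 mo mice, 0.545, 1.22 and 0.657 in 21 mo mice and 0.341, 0.331 and 0.306 in O304-treated mice. Unlike its level, the ratio of Plce1 separated the treated from the untreated 21-month mice. The difference in log2 ratio was 1.17 between the 21 mo and 18 mo groups and −1.22 between the treated and untreated 21-month groups (exact permutation test p = 0.1 for each). For 21 mo/O304 against 21 mo, 4.41% of all other tested genes had no overlap in that direction, and 1.96% had a ratio higher in every 21 mo mouse than in every other mouse. The differences became 1.27 and −1.32 once the third 21 mo library was left out, and the groups did not overlap. The ratios of the other 6 genes overlapped between groups in all 3 comparisons with all 9 libraries. Leaving that library out, those of Podxl, Synpo and Cd2ap were higher in both remaining 21 mo mice than in every 18 mo mouse, and those of Synpo, Magi2, Cd2ap and Actn4 were lower in every treated mouse than in both. These remaining mice had the lowest Nphs1 levels of the series, 8.96 and 8.70 CPM, which raises any ratio to Nphs1 there. The share of all genes without overlap was not taken in this setting, also for Wt1 and Plce1. These patterns are therefore not read as particular to the genes named. In replicate 3 of the 21 mo group Podxl, Magi2 and Actn4 had their lowest ratios to Nphs1, at 8.05, 0.250 and 12.03.

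**Figure D4:**
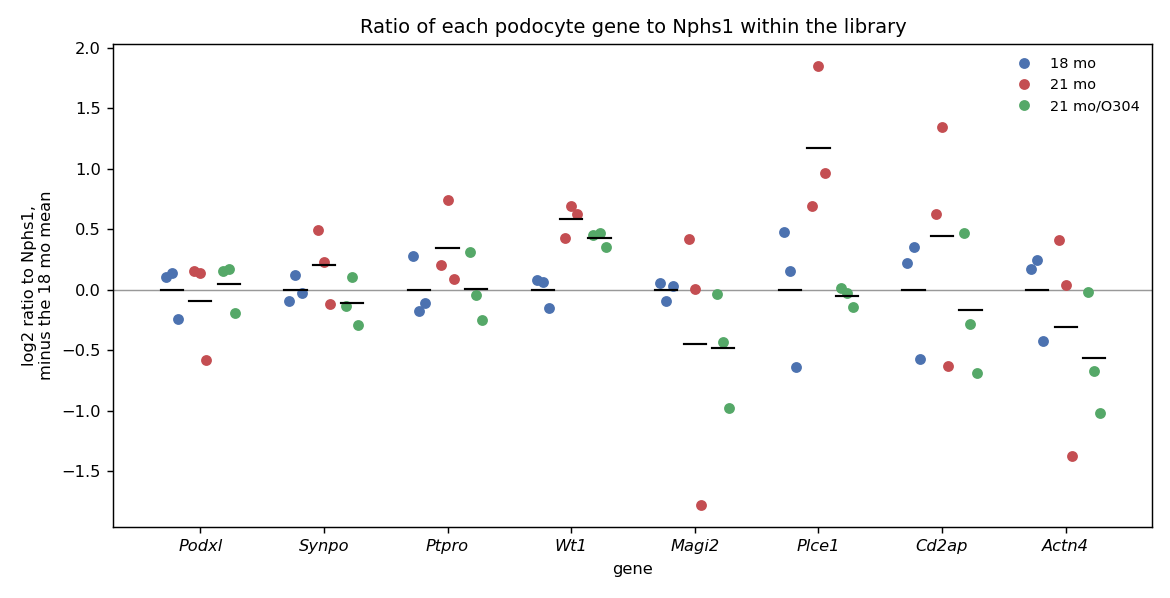
Log2 ratio of the count of each of 8 podocyte genes to that of Nphs1 in the same library, with the mean of the 18 mo group set to 0; points are libraries coloured by group and short lines are group means. For Wt1 all 6 points of the older groups lie above the 3 of the 18 mo group, with group means 0.58 and 0.43 above it, and for Plce1 the 21 mo points lie above those of both other groups.

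The order of the mice was largely shared by the 9 genes in the 18 mo and 21 mo/O304 groups. In the 18 mo group replicate 3 was the highest for 7 of the 9 genes and replicate 2 the lowest for 7. In the 21 mo/O304 group replicate 1 was the lowest for 7 and replicate 3 the highest for 6. In the 21 mo group replicate 3 was the highest for 8, and the lowest was replicate 1 for 4 and replicate 2 for 5. The sum of the 7 genes from Nphs1 to Plce1, leaving out the widely expressed Cd2ap and Actn4, was 200, 188 and 283 CPM in 18 mo mice, 204, 198 and 515 CPM in 21 mo mice and 199, 315 and 329 CPM in O304-treated mice. Podxl was the largest part of this sum in every library, at 115 CPM in replicate 2 and 280 CPM in replicate 3 of the 21 mo group.

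To place the list among all genes, each tested gene was ranked by Pearson's r of its log2 CPM with that of Nphs1 over the 9 libraries, given as a description since the libraries share their depth and cell makeup. Of 15901 genes, Podxl ranked 2 (r = 0.97), Synpo 11 (r = 0.94), Wt1 12 (r = 0.93) and Ptpro 44 (r = 0.89), while 0.245% of all genes had an r over 0.9. Plce1 ranked 1562 (r = 0.61), Actn4 2979 (r = 0.48), Cd2ap 5198 (r = 0.28) and Magi2 5324 (r = 0.26). Without replicate 3 of the 21 mo group, a setting chosen after the data were seen, r was 0.96 for Podxl, 0.86 for Synpo, 0.83 for Wt1, 0.72 for Ptpro and 0.51 for Magi2. It was −0.05 for Plce1, 0.05 for Actn4 and −0.45 for Cd2ap. Without the 2 libraries farthest from the median of Nphs1, replicates 3 of the 21 mo and 21 mo/O304 groups, r was 0.93 for Podxl, 0.84 for Synpo, 0.70 for Wt1 and 0.62 for Ptpro. The likeness of podocalyxin to nephrin was thus nearly the same without the outlying mouse, whereas that of Plce1 and Actn4 was near 0 without it.

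The 10 genes outside the list most like Nphs1 were Sema3g (r = 0.98), Hvcn1, Pycr1, Gnao1, Vps51, Vegfd, Tnfrsf11b, Rab3b, Gabra3 and Rcn2 (r = 0.93). Sema3g, a secreted semaphorin known as a podocyte product, ranked first of all genes and had an r of 0.97 without replicate 3 of the 21 mo group. It stood at 33.8, 38.6 and 60.2 CPM in 18 mo mice, 34.4, 32.8 and 119 CPM in 21 mo mice and 37.6, 52.7 and 60.5 CPM in O304-treated mice (Spearman's coefficient with Nphs1 0.88). Several of the 10 were low, with Pycr1 between 0.334 and 1.83 CPM. Sema3g, Hvcn1, Pycr1 and Gnao1 were the 4 that also stood among the first 10 outside the list without that library. With Spearman's rank coefficient, which gives the outlying mouse no extra weight, Podxl stood at 0.97, Ptpro at 0.80, Wt1 at 0.73 and Synpo at 0.65 with Nphs1.

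**Figure D5:**
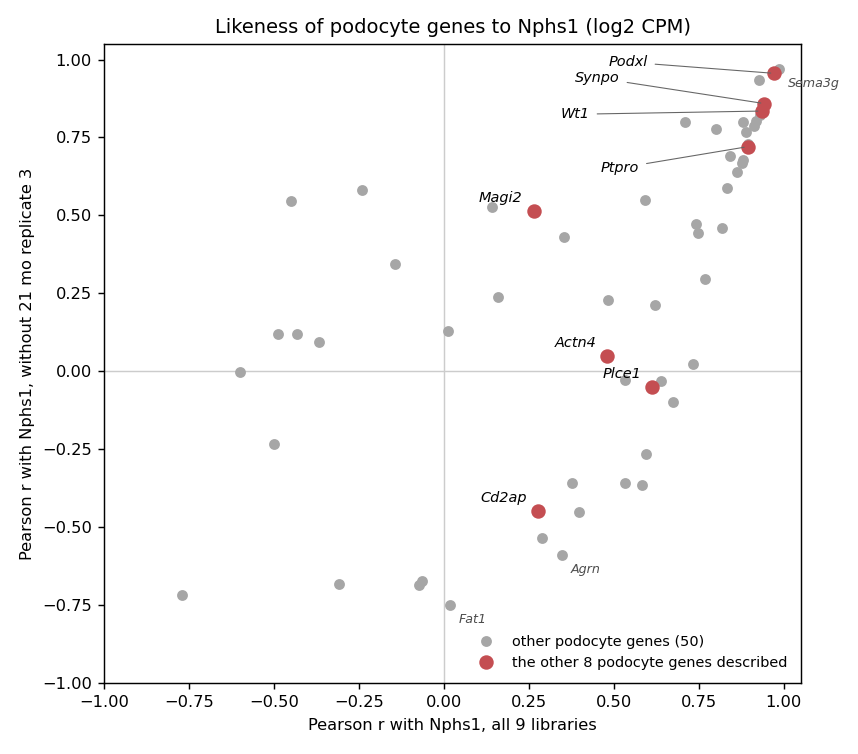
Pearson's r of log2 CPM with Nphs1 over all 9 libraries (x axis) against the same without replicate 3 of the 21 mo group (y axis); red points are the other 8 genes described and grey points 50 further podocyte genes. Podxl, Synpo, Wt1 and Ptpro lie at the upper right, from 0.97 and 0.96 for Podxl to 0.89 and 0.72 for Ptpro, Plce1 and Actn4 fall to near 0 on the y axis, and Cd2ap lies below it at −0.45.

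A wider list of 53 podocyte genes, grouped by role, was set beside the 9, and 50 of them were tested (Kirrel2, Kirrel3 and Trpc6 were too low). None passed the adjusted threshold in edgeR in any of the 3 comparisons, where the shares over all tested genes were 0.0189%, 0% and 0%. At an unadjusted p of 0.05, 9 were higher and 3 lower in 21 mo than in 18 mo, where 14% of all tested genes were higher and 12% lower. In 21 mo/O304 against 21 mo, 2 were higher and 10 lower, beside 8.27% and 12.4%, and in 21 mo/O304 against 18 mo 1 was higher and 1 lower, beside 4.33% and 5.33%. DESeq2 called 5, 3 and 0 of the list in the 3 comparisons. The shares were 7.29%, 3.36% and 0.446% of all genes with counts, and 12.3%, 6.07% and 0.869% of those with an adjusted p. Limma voom with sample quality weights called 27, 25 and 0, beside 52.9%, 41.1% and 2.61% of all tested genes. The medians of the list were 0.36, −0.32 and −0.02 on the log2 scale, and without replicate 3 of the 21 mo group they were −0.04, 0.08 and −0.03. In that library 32 of the 50 genes had their highest level, beside 28.9% of all tested genes. As for the 9 genes, the signs of the medians in the comparisons with the 21 mo group thus rested on 1 mouse.

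By role, the slit diaphragm and polarity genes had a median of 0.86 in 21 mo against 18 mo (0.13 without replicate 3 of the 21 mo group) and the podocyte transcription factors 0.78 (−0.36 without it). The cytoskeleton genes had 0.11 (−0.14 without it), the genes of the glomerular basement membrane and its receptors 0.35 (0.10) and the other podocyte-enriched genes 0.49 (−0.11). Without replicate 3 of the 21 mo group, Rhpn1 passed as lower in 21 mo than in 18 mo, at −1.02 (adjusted p = 0.0481, edgeR), where 0.806% of all genes passed. With all 9 libraries Rhpn1 was at −0.45 (SE 0.32, adjusted p = 0.397, edgeR), and its highest level of all libraries, 35.1 CPM, was in the one left out.

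The genes of the wider list with the smallest p-values in 21 mo against 18 mo on the lower side were Bmp7, a growth factor that supports nephron epithelium, at −0.54 (SE 0.11, adjusted p = 0.0626, edgeR), Vegfa, the growth factor that maintains glomerular capillaries, at −0.73 (SE 0.17, adjusted p = 0.0707, edgeR), and Col4a4, a collagen chain of the mature glomerular basement membrane, at −0.61 (SE 0.18, adjusted p = 0.0922, edgeR). Vegfa stood at 170, 178 and 147 CPM in 18 mo mice, 123, 78.5 and 97.1 CPM in 21 mo mice and 144, 157 and 153 CPM in O304-treated mice. All 3 genes were lower in every 21 mo than in every 18 mo mouse, as were 15.3% of all tested genes, and their values without replicate 3 of the 21 mo group were −0.52, −0.73 and −0.51. Vegfa and Bmp7 are also made by tubule cells, and the summed proximal tubule markers were lower in replicates 2 and 3 of the 21 mo group than in every 18 mo mouse. Their part in the result was not tested. On the higher side the smallest p-values were those of the integrin chain Itgb1 at 0.67, the protocadherin-like Fat1 at 0.79 and the junction protein Tjp1 at 0.69, with adjusted p between 0.104 and 0.117 (edgeR). Their values in the fit lacking replicate 3 of the 21 mo group were 0.37, 0.66 and 0.46.

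In 21 mo/O304 against 21 mo the 3 smallest p-values on the lower side were those of Fat1 at −1.23, Agrn, the basement membrane proteoglycan agrin, at −1.39 and Npnt, the integrin ligand nephronectin, at −0.62. On the higher side they were Vegfa at 0.61, Bmp7 at 0.30 and Slc9a3r2, a scaffold that links podocalyxin to actin, at 0.38. Their adjusted p lay between 0.175 and 0.269 (edgeR), and each kept its sign without replicate 3 of the 21 mo group. Against the 18 mo group, the treated mice had Dach1 at 0.44 and Shisa3 at 1.06 on the higher side and Bmp7 at −0.25, Tcf21 at −0.94 and Ilk at −1.32 on the lower, with adjusted p between 0.449 and 0.583 (edgeR). Dach1 and Tcf21 encode transcription factors that podocytes use, and Ilk was low in every library, at 0.116 to 1.47 CPM.

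The other cells of the glomerulus did not vary in step with the podocyte genes in every mouse. Markers of endothelium, glomerular endothelium included, summed to 480 to 720 CPM in 18 mo mice, 409 to 606 CPM in 21 mo mice and 547 to 909 CPM in O304-treated mice, with their lowest value in replicate 3 of the 21 mo group. Mesangial and juxtaglomerular markers summed to 161 to 217, 123 to 355 and 122 to 175 CPM, with their highest value in that library. Parietal epithelial markers summed to 23.6 to 46.1, 45.0 to 407 and 30.9 to 48.4 CPM. The library with the highest sum of the 7 podocyte genes thus had the highest mesangial and parietal sums and the lowest endothelial sum. All 4 parietal genes were highest there, but only 4 of the 8 mesangial and juxtaglomerular genes and 1 of the 10 endothelial genes. Akap12 alone made up 270 of the 407 CPM of the parietal sum there. Whether the parietal genes came from parietal cells alone was not tested. Serpine2 alone made up 151 of the 355 CPM of the mesangial and juxtaglomerular sum, while Agtr1a was at its lowest in that library, at 17.3 CPM.

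Outside the glomerulus, proximal tubule markers summed to 14305 to 18576 CPM in 18 mo mice, 1904 to 15268 CPM in 21 mo mice and 16097 to 17373 CPM in O304-treated mice. Markers of the thick limb, distal tubule and collecting duct summed to 4024 to 8374, 3431 to 7178 and 3138 to 5159 CPM. Leukocyte markers summed to 167 to 297, 505 to 2478 and 370 to 384 CPM, and fibroblast markers to 172 to 254, 138 to 1318 and 104 to 246 CPM. Adipocyte markers, among them Adipoq and Lep, were at 0 counts for up to 4 of 5 genes in an 18 mo library and up to 2 in a 21 mo library. They summed to 0.123 to 8.37, 1.47 to 5.13 and 9.60 to 135 CPM. Of 60 tested genes in these 8 lists, none passed the adjusted threshold in edgeR in any comparison. At an unadjusted p of 0.05, 14 were higher and 7 lower in 21 mo against 18 mo, 12 and 13 in 21 mo/O304 against 21 mo and 7 and 2 in 21 mo/O304 against 18 mo. The shares over all tested genes were 14% and 12%, 8.27% and 12.4%, and 4.33% and 5.33%. DESeq2 called 15, 12 and 2 of them, beside 7.29%, 3.36% and 0.446% of genes with counts (12.3%, 6.07% and 0.869% of those with an adjusted p). Limma voom with sample quality weights called 42, 42 and 0, beside 52.9%, 41.1% and 2.61%. Replicate 2 of the 21 mo group, where Plce1 and Cd2ap were high and nephrin was not, also had low proximal tubule markers (7370 CPM) and high leukocyte (846 CPM) and fibroblast (569 CPM) markers. The part of these cell types in the levels of Plce1 and Cd2ap was not tested.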

How the data were processed

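Kidney RNA of 9 mice, 1 library per mouse and none pooled, was sequenced by the authors. Per the submitters' processing notes, reads were aligned with HISAT2 2.0.5 to GRCm38 (mm10) and counted with featureCounts 1.5.0-p3. The deposited counts are whole numbers per gene without normalization. FPKM, also deposited, scales each count by gene length and library size, as the authors set them. The table also holds group means and the results of the authors' own comparisons (fold changes and p-values from DESeq2 1.20.0), which were not used. Strandedness and the handling of reads with several matches are not given in the sources used here. The coordinates printed are those of the deposited table.

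Genes passing edgeR's filterByExpr (minimum count 10, minimum total 15) were fitted with edgeR 4.0.16 in R 4.3.3, by the quasi-likelihood test on TMM-normalized counts of all 9 libraries with 3 group means and 6 residual degrees of freedom. Tests were two-sided, with Benjamini-Hochberg adjustment over all tested genes and a threshold of 0.05. CPM used the TMM library sizes, and log2 CPM a prior count of 2. Levels and ratios were compared by a two-sided exact permutation test, whose smallest p for 3 mice against 3 is 0.1. The fits were also run on simulated counts. Those had the same spread in every group and no outlying library, unlike these data, so they do not show how the fits behave here.

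All 9 genes were named in every comparison, with the 3 smallest p-values per side from the wider lists and the 10 genes most like Nphs1. Rhpn1 and the ratios to Nphs1 were added after their values were seen, and some results that need withheld items are not reported here. The genes and lists were chosen with earlier results of these data known. Alternatives were DESeq2 1.42.0, limma 3.58.1 (voom with sample quality weights, and its trend method on log2(FPKM + 1) where the mean FPKM reached 0.5), edgeR with DESeq2's size factors or upper-quartile scaling, no filter beyond 1 count in all, a fit of 6 libraries only, a replicate block, and leaving out each library. No sequence is shown.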

Additional observations from a re-analysis of the deposited data

How the results depend on the processing

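Of 456 alternative values for the fold changes of the 9 genes, 408 kept their direction and their side of the threshold, 35 reversed and 13 passed the threshold where the reported value did not. Called genes among the 9 were 0 in every comparison and became 2 with DESeq2 and 4 with limma voom and sample quality weights (2 higher, 2 lower) in 21 mo against 18 mo, and 3 with voom in 21 mo/O304 against 21 mo. For the wider list they became 5 and 27 in the first comparison and 3 and 25 in the second. With DESeq2 12.3% and 6.07% of all genes with an adjusted p passed, and with voom 52.9% and 41.1% of all tested genes. Leaving out 1 library gave 0 to 2 of the 9 genes in each of these comparisons and 0 to 20 and 0 to 14 of the wider list, the highest without replicate 1 of the 21 mo group. In the fit without that library 25.4% and 23.1% of all tested genes passed in these comparisons. Over all genes, 3 were called in 21 mo against 18 mo, 2059 with DESeq2, 8409 with voom, 576 with every gene of at least 1 count, 0 on the 6 libraries alone, 4186 without replicate 1 of the 21 mo group and 130 without replicate 3. In 21 mo/O304 against 21 mo, 0 were called, 947 with DESeq2, 6528 with voom, 17 with every gene of at least 1 count and 3808 without replicate 1 of the 21 mo group. In 21 mo/O304 against 18 mo they were 0, 126 with DESeq2, 415 with voom, 22 on the 6 libraries alone and 12 without replicate 3 of the 21 mo group. DESeq2 split its calls into 1154 higher and 905 lower in the first comparison and 282 and 665 in the second, and voom into 4180 and 4229 and 3372 and 3156.

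Voom reversed 21 mo against 18 mo for Nphs1 (−0.53), Podxl (−0.32) and Synpo (−0.29), and 21 mo/O304 against 21 mo for Nphs1 (0.65), Synpo (0.35), Wt1 (0.40) and Actn4 (0.090). The cause was not tested, although the edgeR fit without replicate 3 of 21 mo had the same signs for these values, except that of Actn4 (−0.10). Near 0, Actn4 in 21 mo against 18 mo became 0.037 with upper-quartile normalization, 0.0096 with every gene of at least 1 count and 0.017 on the 6 libraries alone, and Magi2 in 21 mo/O304 against 21 mo became −0.017 and −0.0096 under the first pair. Leaving out 1 library moved 21 mo against 18 mo from −0.45 to 0.89 for Nphs1, −0.26 to 0.52 for Podxl, −0.076 to 0.94 for Synpo, −0.42 to 0.14 for Magi2 and −0.16 to 0.13 for Actn4. It moved 21 mo/O304 against 21 mo from −0.56 to 0.77 for Nphs1, −0.13 to 0.64 for Podxl, −0.68 to 0.29 for Synpo, −0.78 to 0.62 for Wt1, −0.10 to 0.12 for Magi2 and −0.84 to 0.23 for Ptpro, and 21 mo/O304 against 18 mo from −0.41 to 0.13 for Magi2. Magi2 changed side without replicate 3 of the 18 mo group, at 0.14 in 21 mo against 18 mo and 0.13 in 21 mo/O304 against 18 mo.

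The groups share replicate numbers, but nothing says that a number marks a shared animal or day. The correlation of same-numbered deviations was −0.06, 0.15 and 0.15 for 21 mo with 18 mo, 0.09, −0.13 and 0.17 for 21 mo/O304 with 21 mo and 0.17, −0.13 and 0.12 for 21 mo/O304 with 18 mo. Not every library correlated best with its own number. With 3 libraries a group, these values cannot decide whether the numbers pair the mice. Replicate 3 was the highest in all 3 groups for Nphs1, Podxl, Wt1, Ptpro and Actn4, and not for the other genes. With the replicate number as a block, 0 of the 9 genes and 0 of the wider list were called in every comparison, 0 of all genes were called in 21 mo against 18 mo where 3 were without it, and Nphs1 in 21 mo/O304 against 21 mo went from −0.23 to 0.00393.

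With 3 mice a group and a wide spread at 21 months, even differences of several standard errors could miss the threshold. In 21 mo against 18 mo those of Cd2ap (0.76, SE 0.18) and Plce1 (1.71, SE 0.50) missed it in edgeR. The lowest count behind a level of the 9 genes was 56, for Plce1, so that counting error is part of the spread of the lowest genes.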
